A study of Mus musculus with 3 samples.

Results

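The genes described here encode the machinery that carries proteins into mitochondria: every gene whose symbol begins with Timm or Tomm followed by a digit, together with Pam16, Dnajc19, Grpel1, Grpel2, Samm50, Mtx1, Mtx2, Pmpca and Pmpcb. On the arrays, 31 such genes had at least 1 probe set annotated to a single gene, out of 18193 genes named in this way, and they were read by 63 probe sets. The symbols Dnajc19, Tomm5 and Tomm6 occurred only on probe sets shared with another gene and gave no value. Where a gene had several probe sets, the one with the highest mean over the arrays stands for it. RNA was measured on 3 Affymetrix arrays of memory phenotype CD4 T cells, helper T cells with the surface phenotype of antigen-experienced cells, sorted from the spleens of BALB/c mice to a purity above 99%. The ND group held 1 array from mice on a normal diet, and the HFD group held 2 arrays from mice on a high fat diet with 60 kcal% fat, both fed for 10 weeks. Whether each array came from 1 mouse or a pool is not given in the sources used here, nor is the age of the mice, so the spread between the HFD arrays may be technical.

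Nearly all mitochondrial proteins are encoded in the nucleus, made in the cytosol and imported. The TOM complex recognises precursors at the outer membrane and passes them through its channel. From there, the TIM23 complex and its motor carry proteins with a cleavable presequence into the inner membrane and matrix, the small TIM chaperones escort hydrophobic proteins across the intermembrane space to the TIM22 complex, and the SAM complex inserts beta barrels into the outer membrane. T cells are known to enlarge and remodel their mitochondria when they are activated.

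Before the members are compared, the arrays need a description, because the comparison rests on a lone ND array. The median intensity was 78.3 on the ND array and 69.7 and 67.4 on the HFD arrays, while the trimmed means were equal, and the median log2 difference of all genes tested was -0.15. Of 10341 genes tested, 49.6% were called in either direction by limma at a Benjamini-Hochberg adjusted p under 0.05. The CD4 T cell markers Cd3e (4167 on the ND array, 2558 and 2426 on the HFD arrays) and Cd4 (911, 609 and 377) were present on every array, as was Cd44 of memory phenotype cells (9761, 5623 and 5700). All 5 memory phenotype markers listed fell in HFD. H2-Ea, a class II gene that BALB/c mice express and mice of the b haplotype do not, read 11.5 on the ND array and 536 and 602 on the HFD arrays, which goes against the shared strain label, whereas the class II genes H2-Aa, H2-Ab1, H2-Eb1 and Cd74 fell in HFD. The summed intensity of 8 B cell markers was 1636 on the ND array and 3286 and 3559 on the HFD arrays; of the 5 tested, 2 rose and 1 fell. Ms4a1 (56.8 in ND, 1612 and 1837 in HFD) and Fcer2a (31.6, 524 and 644) carried the higher sum, and the other 6 markers together read 1548 in ND and 1150 and 1078 in HFD. The defining markers went both ways: Cd79a read 5.74, 51.2 and 49.4 and Pax5 65.1, 27.0 and 6.86, both too dim to be tested, Cd79b read 219, 190 and 168 and was not called, and Cd22 fell from 939 to 605 and 504. That of 9 macrophage and monocyte markers was 2441, 899 and 1079, and 5 of the 6 tested fell, as did 3 of the 4 dendritic cell markers tested (sums of 1568, 699 and 765) and 6 of the 8 CD4 T cell markers tested (sums of 85999, 73713 and 71271). The summed intensity of 6 neutrophil markers was 182, 605 and 657. Of these, S100a8 (40.9 in ND, 247 and 362 in HFD) and S100a9 (5.85, 183 and 131) rose. Ngp (76.1, 96.2 and 69.1) was not called, and Camp, Elane and Mpo were too dim to be tested. The part of strain, other cells, handling or array batch in the results was not tested, and none of them can be told apart from diet with a single ND array.

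Import genes were higher in HFD in almost every branch of the pathway. Of the 31 genes, 29 passed the filter on low values, all 29 of them also on the ND array alone. Of these, 24 rose, 0 fell and 5 were not called, against 20.5% of all genes tested that rose and 29.2% that fell (limma, adjusted p under 0.05 over all genes). The increases ran from 1.30-fold for the receptor Tomm22 to 5.16-fold for the chaperone Timm8a1. The median log2 difference of the 29 genes was 0.76, which lay 0.91 above the median of all genes tested. Counting sizes alone, without a test, 18 of the 29 were at least 1.5-fold higher in both HFD arrays (12.7% of all genes tested) and 0 were at least 1.5-fold lower in both (14.9% of all genes tested).

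Here and below, an intensity is the deposited value of a probe set and has meaning only between arrays. A fold or log2 difference is on the log2(intensity + 17.65) scale, in which the constant damps differences among dim signals. A standard error (SE), interval or adjusted p comes from limma across all genes with Benjamini-Hochberg adjustment. In that fit the spread comes from the HFD arrays, and the ND array is assumed to vary like them.

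**Figure D1:**
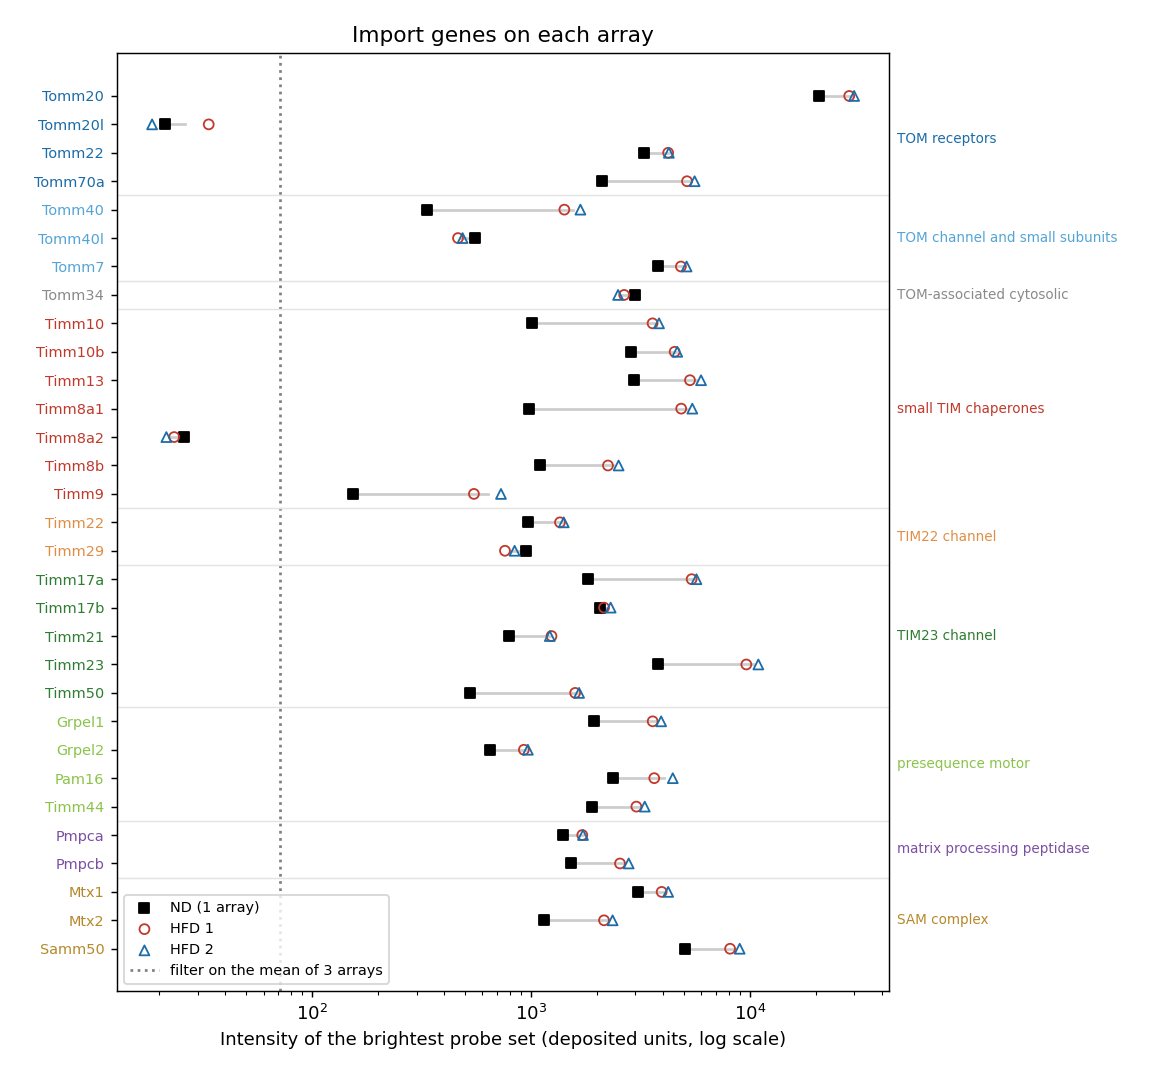
Intensity of the brightest probe set of each of the 31 import genes (log axis), grouped by role, with the ND array as a black square, HFD 1 as a circle and HFD 2 as a triangle. The grey bar joins ND to the HFD mean, and the dotted line is the filter on the mean of the 3 arrays. For 26 of the 29 genes past the filter both HFD arrays lie to the right of ND, and Tomm20l and Timm8a2 lie left of the filter on every array.

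The HFD arrays lay close to each other and away from ND. The median absolute log2 difference of the 29 genes was 0.67 between HFD 1 and ND, 0.83 between HFD 2 and ND, and 0.10 between the HFD arrays. Both HFD arrays exceeded ND for 26 of the 29 genes (35.8% of all genes tested), and both lay below ND for the other 3, Tomm34, Tomm40l and Timm29 (54.7% of all genes tested). A smaller shift separated the HFD arrays themselves: 27 of the 29 genes read higher on HFD 2 than on HFD 1, against 50.6% of all genes tested. The exceptions were Timm21 and Tomm34. The widest gap between HFD arrays was that of Timm9, at 0.40 on the log2 scale.

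Import genes are bright on these arrays, and bright genes rose more often. In the top brightness quartile of the genes tested, 36.4% rose and 32.5% fell, and 16 of the 18 import genes there rose. In the next quartile, 23.8% of genes rose and 33.7% fell, and 7 of the 9 import genes there rose. The median log2 difference in these quartiles was 0.03 and -0.12 for all genes and 0.76 and 0.63 for the import genes.

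On their brightest probe sets, the tested receptors of the TOM complex were higher in HFD to different degrees. Differences between them were not tested, and the log2 ranges over all probe sets past the filter overlap. These ranges were 0.74 to 1.34 for Tomm70a, 0.11 to 0.98 for Tomm20 and 0.38 to 0.77 for Tomm22. Tomm70a, a receptor for carrier precursors and the chaperones that deliver them, read 2117 on the ND array and 5162 and 5592 on the HFD arrays. This increase was 2.53-fold (log2 1.34 ± 0.11 SE, adjusted p = 8.0e-07), with ND far below both HFD arrays. Tomm20, the receptor for presequences, read 20610 in ND and 28465 and 29962 in HFD. It rose 1.42-fold (log2 0.50 ± 0.07 SE, adjusted p = 7.6e-05). Tomm22, a receptor that also anchors the complex, read 3268 in ND and 4234 and 4266 in HFD, an increase of 1.30-fold (adjusted p = 0.00904) and the smallest among the called members; with its probe sets averaged the log2 difference was 0.57 against 0.38. Tomm20l, a paralog of Tomm20, read 21.2 in ND and 33.6 and 18.5 in HFD, near the offset, and was not tested.

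At the TOM channel the paralogs differed in sign, and 1 of the pair was called. Tomm40, the pore through which precursors cross the outer membrane, read 334 in ND and 1420 and 1682 in HFD. It rose 4.44-fold (log2 2.15 ± 0.15 SE, adjusted p = 2.3e-07), next to the largest increase among the members. Tomm40l, a paralog of the channel protein, read 554 in ND and 464 and 487 in HFD. Its log2 difference was -0.21, with a 95% interval from -0.56 to 0.13 (adjusted p = 0.284). The intervals of the paralogs do not overlap, and the difference between them was not itself tested. Tomm7, a small subunit that modulates the assembly of the complex, read 3802 in ND and 4842 and 5140 in HFD and rose 1.31-fold (adjusted p = 0.00687). Tomm34, a cytosolic cochaperone named with the family that is not a part of the membrane complex, read 2981 in ND and 2666 and 2500 in HFD (log2 -0.21, 95% interval -0.45 to 0.04, adjusted p = 0.152).

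The small TIM chaperones, which form hexameric rings in the intermembrane space, had the highest median log2 difference of the role groups, at 1.48. All 6 members tested rose, against 20.5% of all genes tested. Timm8a1, the mouse counterpart of the gene mutated in human deafness-dystonia syndrome, read 984 on the ND array and 4856 and 5459 on the HFD arrays. It rose 5.16-fold (log2 2.37 ± 0.12 SE, adjusted p = 1.4e-08). Its partner in the ring, Timm13, read 2950 in ND and 5326 and 5984 in HFD and rose 1.91-fold (log2 0.93 ± 0.11 SE, adjusted p = 2.0e-05). The 95% intervals of these ring partners, 2.11 to 2.62 and 0.70 to 1.17, do not overlap, and the difference was not tested. In the other ring, Timm9 read 154 in ND and 548 and 729 in HFD, an increase of 3.78-fold (log2 1.92 ± 0.20 SE, adjusted p = 6.9e-06). Timm10 read 1007 in ND and 3594 and 3846 in HFD, an increase of 3.65-fold (log2 1.87 ± 0.12 SE, adjusted p = 9.8e-08). Each of these genes had ND well below both HFD arrays. Timm8b, a paralog of Timm8a1, read 1099 in ND and 2247 and 2514 in HFD and rose 2.14-fold (adjusted p = 1.9e-05). Timm10b, which tethers the ring to TIM22, read 2869 in ND and 4533 and 4659 in HFD and rose 1.60-fold (adjusted p = 1.9e-04). Timm8a2, the third gene of the Timm8 type, read 26.1 in ND and 23.4 and 21.5 in HFD and was not tested.

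Of the 2 genes grouped here under the TIM22 complex, which inserts carrier proteins into the inner membrane, 1 rose, against 20.5% of all genes tested. Timm22, the channel itself, read 967 in ND and 1356 and 1411 in HFD and rose 1.42-fold (adjusted p = 0.00633), a call that was lost when its probe sets were averaged (adjusted p = 0.132). Timm29, a subunit needed for the assembly of the complex, read 952 in ND and 760 and 841 in HFD. Its log2 difference was -0.25, with a 95% interval from -0.56 to 0.07 (adjusted p = 0.176).

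Of the 5 genes of the TIM23 channel, the gate for presequence proteins, 4 rose (20.5% of all genes tested), and the odd member was again a paralog. Timm23, the core of the channel, read 3818 in ND and 9637 and 10938 in HFD, a 2.68-fold increase (log2 1.42 ± 0.10 SE, adjusted p = 2.5e-07). Timm50, the receptor that takes presequence proteins over from TOM, read 527 in ND and 1591 and 1658 in HFD, a 3.01-fold increase (log2 1.59 ± 0.13 SE, adjusted p = 1.2e-06); with its probe sets averaged the log2 difference was 0.92 (adjusted p = 0.00481). Timm21, which links the complex to TOM and to respiratory chain assembly, read 791 in ND and 1240 and 1218 in HFD, a 1.54-fold increase (adjusted p = 0.00202). In each of these, both HFD arrays lay above ND, as they did for 35.8% of all genes tested. Timm17a and Timm17b encode alternative subunits of the channel. Timm17a read 1831 in ND and 5421 and 5702 in HFD and rose 3.02-fold (log2 1.59 ± 0.11 SE, adjusted p = 1.5e-07). Timm17b read 2056 in ND and 2156 and 2312 in HFD (log2 0.12, 95% interval -0.14 to 0.38, adjusted p = 0.434). As with the channel paralogs of TOM, these intervals do not overlap and the difference was not tested.

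The motor that pulls presequence proteins into the matrix was higher in all 4 genes measured, against 20.5% of all genes tested that rose. Grpel1, the nucleotide exchange factor of mitochondrial HSP70, read 1944 in ND and 3597 and 3933 in HFD and rose 1.93-fold (log2 0.95 ± 0.11 SE, adjusted p = 2.7e-05). Its paralog Grpel2 read 648 in ND and 928 and 967 in HFD and rose 1.45-fold (adjusted p = 0.00722). Unlike the channel paralogs, both genes were called. Timm44, which tethers HSP70 to the channel, read 1900 in ND and 3030 and 3310 in HFD and rose 1.66-fold (adjusted p = 2.5e-04). Pam16, which restrains the J protein of the motor, read 2365 in ND and 3657 and 4445 in HFD and rose 1.70-fold (adjusted p = 3.3e-04).

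Of the matrix processing peptidase, which removes the presequence, the catalytic subunit gene Pmpcb read 1516 in ND and 2550 and 2795 in HFD. It rose 1.75-fold (log2 0.81 ± 0.12 SE, adjusted p = 1.5e-04). Its partner Pmpca read 1397 in ND and 1715 and 1728 in HFD, a log2 difference of 0.30 with a 95% interval from 0.03 to 0.57. Pmpca missed the threshold at an adjusted p of 0.0634 but passed it in 4 of the 11 alternative fits: after centring each array (adjusted p = 0.00434), with the stricter filter (adjusted p = 0.0336), after quantile normalization (adjusted p = 0.0363) and with the robust variance model (adjusted p = 0.0483). The first 2 of these fits gave far smaller adjusted p values for the strongest members, such as 2.3e-77 and 4.2e-75 for Timm8a1 against 1.4e-08 in the main fit. Their adjusted p values are therefore not comparable with those of the main fit. The 95% intervals of Pmpca and Pmpcb overlap slightly.

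All 3 SAM genes rose, against 20.5% of all genes tested. Samm50, the beta barrel at its centre, read 5035 in ND and 8123 and 8989 in HFD and rose 1.69-fold (log2 0.76 ± 0.10 SE, adjusted p = 4.3e-05). Mtx2 read 1150 in ND and 2155 and 2359 in HFD and rose 1.95-fold (adjusted p = 5.2e-05). Mtx1 read 3092 in ND and 3954 and 4236 in HFD and rose 1.32-fold (adjusted p = 0.00767). With the probe sets of Mtx1 averaged, its log2 difference was 0.58 against 0.40. Both metaxins sit on the cytosolic face of the complex, and for both of them the HFD arrays lay above ND (35.8% of all genes tested).

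**Figure D2:**
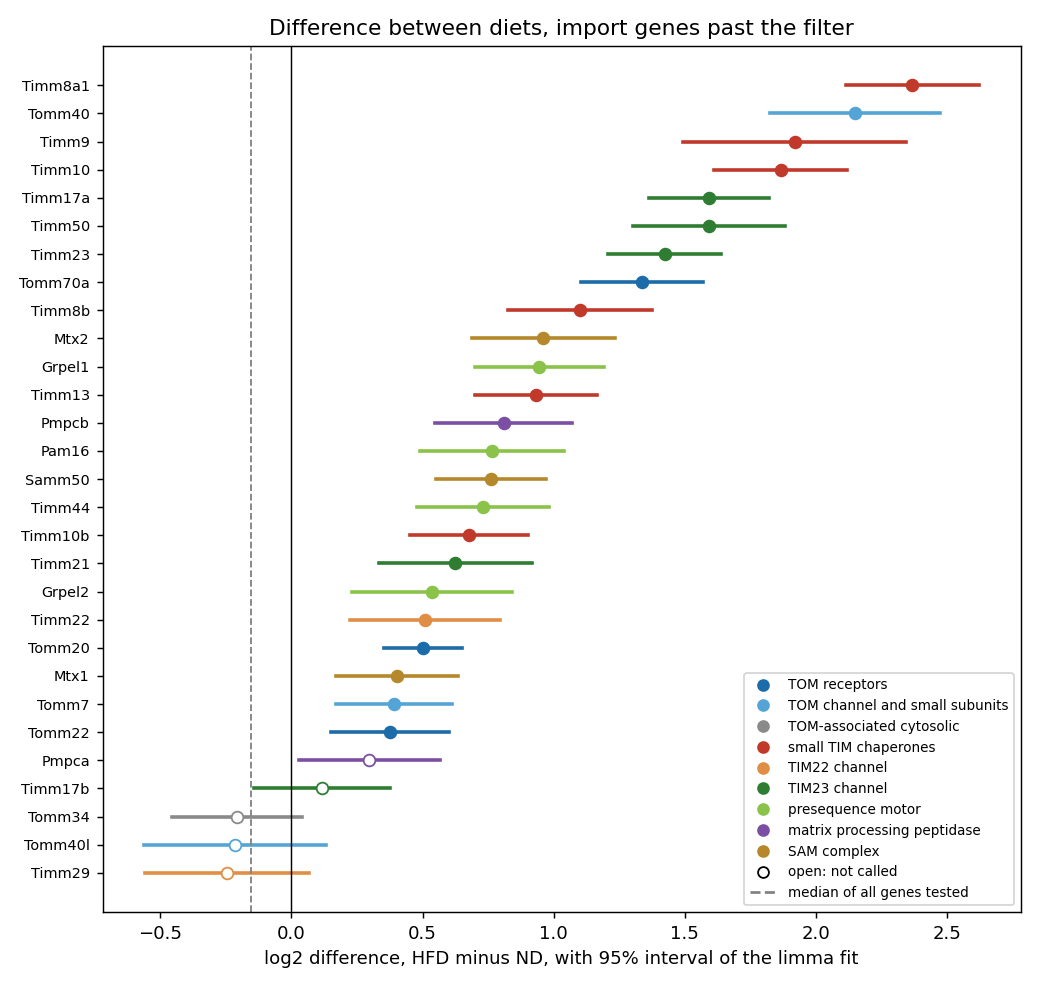
Log2 difference (HFD minus ND) of the 29 import genes past the filter, with the 95% interval of the limma fit, coloured by role; open points were not called, and the dashed line is the median of all genes tested at -0.15. Timm8a1, Tomm40, Timm9 and Timm10 head the ranking, followed by the TIM23 genes Timm17a, Timm50 and Timm23, and the 5 open points, Pmpca, Timm17b, Tomm34, Tomm40l and Timm29, fill the bottom.

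The probe sets of a gene mostly moved together. Past the filter, 18 of the genes had more than 1 probe set, and in 17 of them all probe sets had the same sign. The exception was Timm29, whose dimmer probe set read 270 in ND and 328 and 303 in HFD, opposite in sign to its brightest. Besides the brightest probe sets, 23 others read the 24 genes that rose, and 21 of the 23 were higher in both HFD arrays. The other 2 belong to Timm22 and Timm50. The dimmer Timm50 probe set read 292 in ND and 269 and 457 in HFD, a log2 difference of 0.25 against 1.59 on the brightest. For Timm8a1 the second probe set gave 2.17 against 2.37, for Timm9 it gave 1.40 against 1.92, and for Timm17b it gave 0.10 against 0.12. Sizes varied more for Tomm20, whose 6 probe sets ran from 0.11 to 0.98, and for Tomm70a, whose 4 probe sets ran from 0.74 to 1.34. In 7 of the 29 genes the brightest probe set carries the suffix _s_at or _x_at, which marks probes that can match more than 1 transcript. For Mtx2 and Pam16 such a probe set is the only one.

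**Figure D3:**
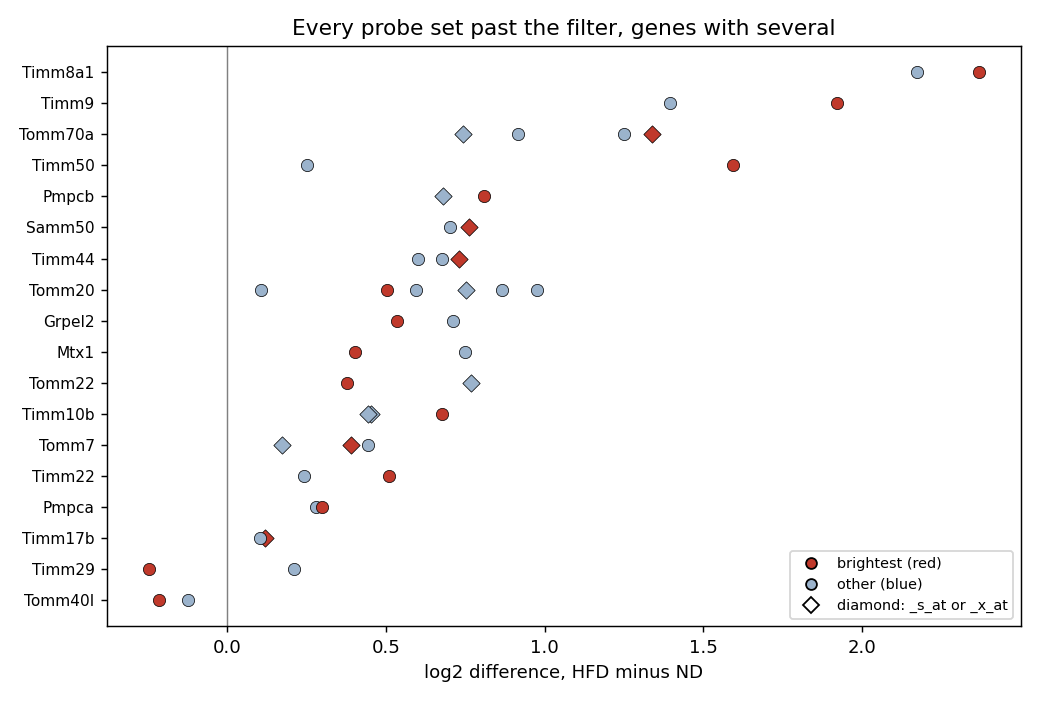
Log2 difference (HFD minus ND) of every probe set past the filter for the 18 import genes that have more than 1, with the brightest probe set in red, others in blue, and diamonds for the suffixes _s_at and _x_at. Probe sets of a gene lie on the same side of 0 except for Timm29, and the brightest probe set of Timm50 stands apart from its other one at 1.59 against 0.25.

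Because most members moved together, their promoters were searched for a pair of motifs of factors known for growth and mitochondrial genes: the E-box CACGTG, bound by MYC among others, and the element of the nuclear respiratory factor NRF1, each on both strands. RefSeq windows on GRCm38.p6 from 250 bases before to 50 bases after a start covered 27 of the 31 genes. Of the 21 genes among them that rose, 4 held the E-box (Timm8a1, Timm9, Timm10 and Tomm20) and 3 the NRF1 element (Pam16, Timm8b and Tomm20). Counted by window, the E-box lay in 18.2% of the windows of members that rose, in 10.2% of the windows of all genes tested and in 7.15% of all RefSeq windows. The NRF1 element lay in 13.6%, 10.7% and 4.60% of the same sets. The 5 windows found for uncalled members held 0 matches of either motif. The window of Tomm20l, which was too dim to be tested, also held an E-box, so 5 of the 27 genes did. These are matches of letters, given with no test. The windows of the 3 members with the largest increases are shown with the matches in capitals, each on the minus strand of its chromosome: Timm8a1 at chrX:134541621-134541920, Tomm40 at chr7:19715380-19715679 and Timm9 at chr12:71136626-71136925.
Timm8a1: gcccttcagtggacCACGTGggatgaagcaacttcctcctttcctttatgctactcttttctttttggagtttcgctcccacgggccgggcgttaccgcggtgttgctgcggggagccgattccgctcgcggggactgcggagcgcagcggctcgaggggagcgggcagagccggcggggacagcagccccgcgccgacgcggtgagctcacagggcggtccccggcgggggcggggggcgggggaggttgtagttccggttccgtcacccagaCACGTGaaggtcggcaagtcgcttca
Tomm40: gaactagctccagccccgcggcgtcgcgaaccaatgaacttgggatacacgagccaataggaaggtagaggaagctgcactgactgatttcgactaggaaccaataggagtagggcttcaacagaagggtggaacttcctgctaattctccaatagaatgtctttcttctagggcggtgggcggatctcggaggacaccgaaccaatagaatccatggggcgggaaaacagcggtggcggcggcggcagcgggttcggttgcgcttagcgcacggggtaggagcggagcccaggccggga
Timm9: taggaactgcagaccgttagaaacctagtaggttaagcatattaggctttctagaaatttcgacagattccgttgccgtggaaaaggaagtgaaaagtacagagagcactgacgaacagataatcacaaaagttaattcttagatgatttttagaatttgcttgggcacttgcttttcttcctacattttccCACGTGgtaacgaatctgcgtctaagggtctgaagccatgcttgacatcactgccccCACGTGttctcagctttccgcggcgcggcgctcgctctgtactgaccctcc
Timm8a1 held its E-boxes 236 bases before and 24 bases after the annotated start, Timm9 held them 58 bases and 1 base before it, and the Tomm40 window held none.

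Genes of the same pathway that the symbols above do not cover were also mostly higher. Of 21 such genes of folding, maturation and membrane insertion, 14 (66.7%) rose and 0 fell, with a median log2 difference of 0.69. Of all genes tested, 20.5% rose and 29.2% fell. The matrix chaperones held the largest increases. Hspd1, the mitochondrial chaperonin HSP60, read 5253 in ND and 21250 and 23130 in HFD. Its cochaperone Hspe1 read 5117 in ND and 17317 and 18851 in HFD, and Hspa9, the HSP70 at the heart of the import motor, read 2846 in ND and 9199 and 10468 in HFD. These amount to 4.21-fold, 3.52-fold and 3.43-fold (adjusted p = 3.1e-09, 9.1e-09 and 5.0e-08), above the motor genes named earlier. Dnajc11, a J protein associated with SAM and the cristae complex, rose 2.18-fold (478 in ND, 990 and 1140 in HFD, adjusted p = 6.0e-05). Members of the disulfide relay that folds small TIM proteins, Chchd4 and Gfer, rose 1.69-fold and 1.85-fold (adjusted p = 5.3e-04 and 1.2e-04). Not called were Xpnpep3, Immp1l, Oxa1l, Mtx3, Mtch1, Agk and Hscb, among them the inner membrane insertase Oxa1l, which read 556 in ND and 563 and 614 in HFD.

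Other lists of mitochondrial proteins are set beside the import genes as a description. Against 20.5% of all genes tested that rose and 29.2% that fell, 66 of 76 mitochondrial ribosomal protein genes (86.8%) rose and 0 fell, with a median log2 difference of 0.70. Of 33 genes listed under complex I by their Nduf symbols, 22 (66.7%) rose and 1 fell, with a median of 0.36. Most SLC25 carriers are clients of Tomm70a, the small TIM chaperones and TIM22, but the list was not restricted to such clients. Of 36 carrier genes, 9 (25%) rose and 8 (22.2%) fell, shares near those of all genes tested, with a median of -0.05. Slc25a33, a pyrimidine nucleotide carrier, rose 2.89-fold (400 in ND, 1133 and 1244 in HFD, adjusted p = 3.5e-06). Slc25a15, the mitochondrial ornithine carrier, and Slc25a26, the carrier of S-adenosylmethionine, rose 2.44-fold and 2.31-fold. Slc25a53 was 2.38-fold lower in HFD (1112 in ND, 473 and 443 in HFD, adjusted p = 3.0e-05). Differences between the lists were not tested, and all of them share the lone ND array.

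**Figure D4:**
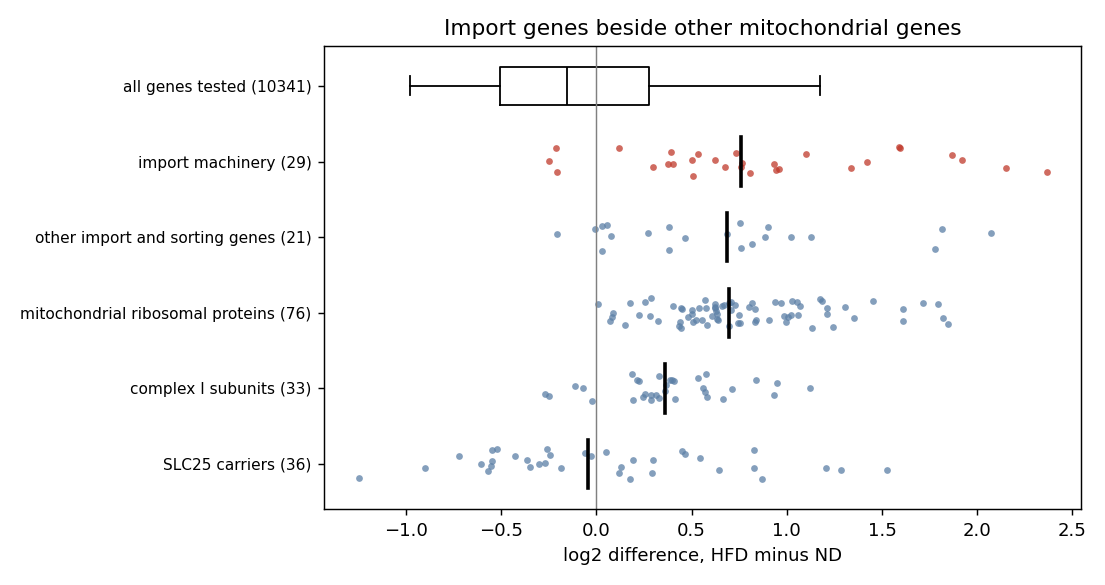
Log2 difference (HFD minus ND) of single genes (points, jittered vertically) in the import machinery and in related lists, with black bars for list medians; the box for all genes tested spans the quartiles with whiskers at the 5th and 95th percentiles. The import machinery (median 0.76), the other import genes (0.69) and the mitochondrial ribosomal proteins (0.70) lie right of all genes (-0.15), while the SLC25 carriers (-0.05) spread over both sides of 0.

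Other measures moved with the import genes on the same arrays. Of 7 proliferation genes listed, 5 rose and 1 fell, against 20.5% and 29.2% of all genes tested. Mcm3, a subunit of the replicative helicase, read 1379 in ND and 5326 and 5557 in HFD. The proliferation marker Mki67 instead read 2092 in ND and 1610 and 1440 in HFD. Of 3 naive T cell markers measured, 2 rose, including Ccr7 (1396 in ND, 6329 and 7136 in HFD). The part of proliferation or of the naive and memory makeup of the sorted cells in the import results was not tested. In bulk samples, more cells of a type and more RNA per cell cannot be told apart.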

How the data were processed

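The authors deposited 1 linear intensity per probe set and array. Per the submitters' processing notes the tool was GCOS, Affymetrix's array software, and neither its version nor its algorithm is given in the sources used here. Every array had a trimmed mean of 500.0 (2% left out on both sides), so the intensities were used as deposited. Of 45101 probe sets, 64 were controls, 34945 had 1 gene symbol, 932 had several and 9160 had none; only those with 1 symbol were named.

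Values were transformed as log2(intensity + 17.65), the 25th percentile of all values. Genes whose brightest probe set had a mean above 71.4, the median of all probe sets, were tested. The diets were compared with lmFit and a trended eBayes of limma 3.58.1 (R 4.3.3) in a two-sided test, with adjustment by Benjamini-Hochberg and calls under 0.05. The residual has 1 degree of freedom, moderated in the main fit with 11.69 prior degrees of freedom, and the small number of arrays limits precision. The procedure was tested on simulated data in which every array, the ND array included, was drawn with a spread taken from the HFD arrays. It could therefore not check the assumption that the ND array varies like them.

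The members, gene lists and naming rule were chosen with earlier results of these data known. All members are accounted for. From the other lists, names were taken from the 4 genes with the largest difference shared by both HFD arrays, and further names, with the split of the B cell marker sum, were chosen after the values were seen. Alternatives covered normalization, offset, filter, probe set, variance model and leaving out an HFD array. Promoter sequences are RefSeq's.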

Additional observations from a re-analysis of the deposited data

How the results depend on the processing

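Across the alternative settings, between 21 and 25 import genes rose and 0 fell. Of all genes tested, 9.14% (no filter) to 28.7% (filter at the 75th percentile) rose and 10.6% to 35.5% fell in the same settings. The lowest count of import genes came without a variance trend, where 16% of all genes tested rose. There Mtx1, Tomm22 and Tomm7 were no longer called (adjusted p = 0.0756, 0.0784 and 0.0788). With probe sets averaged, 23 rose (17.9% of all genes tested), Timm22 being lost (adjusted p = 0.132). The log2 difference of Timm50 moved from 1.59 to 0.92 and that of Tomm22 from 0.38 to 0.57. Apart from Mtx1, Tomm22, Tomm7 and Timm22, the called genes stayed called in every setting fitted. The median log2 difference was 0.76 and moved to 0.91 with arrays centred on their median, which shifted the median of all genes tested from -0.15 to 0.00; under quantile normalization it was 0.72. Without HFD replicate 1 or 2 the median ranged from 0.67 to 0.83, values of 1 array against 1 with no test. Limma cannot estimate a spread from 1 array a group, so calls were not computed there. An alternative added after seeing the data chose probe sets without the suffixes _s_at and _x_at where a gene had any. It kept 24 genes called, against 20.3% of all genes tested that rose, and gave a median of 0.70. Mtx2 and Pam16 have no other probe set, so they were still read on suffixed ones and are among the 24. No paired analysis was possible because the ND group has 1 array and its label carries no replicate number. Signal limits Tomm20l and Timm8a2, which lay near the offset on every array. With no filter, 24 of 31 import genes rose, against 9.14% of all genes.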

Other observations

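Of 16 genes of outer membrane porins, cristae, and mitochondrial fusion and fission, 10 (62.5%) rose and 0 fell in HFD, against 20.5% of all genes tested that rose and 29.2% that fell (limma, adjusted p under 0.05). The porins Vdac1, Vdac2 and Vdac3, beta barrels that the SAM complex inserts, all rose (log2 0.78, 0.73 and 0.62); Vdac1 read 3263 in ND and 5692 and 5550 in HFD. The cristae junction genes Chchd3, Apoo, Chchd6 and Immt rose by 0.96, 0.96, 0.77 and 0.70 on the log2 scale. None of the 6 fusion and fission genes Mfn1, Mfn2, Opa1, Dnm1l, Fis1 and Mff was called, with log2 differences from -0.24 to 0.01; 49.6% of all genes tested were called in either direction, and the difference between these genes and the porin and cristae genes was not tested.

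Of 13 quality control genes, 7 (53.8%) rose and 1 fell, against 20.5% and 29.2% of all genes tested. The increases included the scaffold Phb2 (2.77-fold; 3713 in ND, 10180 and 10480 in HFD), the matrix protease subunits Clpp (2.56-fold) and Clpx (1.49-fold) and the matrix protease Lonp1 (2.27-fold). The inner membrane protease Yme1l1 rose 1.33-fold (2081 in ND, 2604 and 2939 in HFD, adjusted p = 0.0137), whereas the inner membrane proteases Oma1 and Spg7 were not called. Pink1, the kinase that senses failed import, fell (2009 in ND, 1146 and 1190 in HFD, adjusted p = 3.3e-04). Of 17 biogenesis regulators tested, 4 (23.5%) rose and 3 (17.6%) fell, a share of increases near that of all genes tested. Myc, a growth factor-induced transcription factor, rose 6.08-fold (777 in ND, 4629 and 5008 in HFD) and the coactivator Pprc1 rose 2.56-fold (731 in ND, 1820 and 1986 in HFD). Nrf1 fell (799 in ND, 540 and 567 in HFD; adjusted p = 0.0128). The mitochondrial DNA packaging gene Tfam read 2391 in ND and 2621 and 2721 in HFD (log2 0.16, adjusted p = 0.267). Of 9 cytosolic chaperones that can hold precursors, 5 (55.6%) rose and 2 (22.2%) fell, against 20.5% and 29.2% of all genes tested. Those that fell were Dnajb1 (4137 in ND, 3369 and 2838 in HFD) and Ubqln2 (4573 in ND, 3477 and 3497 in HFD). Stip1, which links HSP70 and HSP90, rose 2.43-fold (987 in ND, 2411 and 2431 in HFD), as did Hsp90aa1 at 1.86-fold.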
